A study of Mus musculus with 6 samples.

Results

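Voltage-gated calcium and sodium channel pores were followed gene by gene in RNA of the left cochlea of mice exposed to sound. The pore genes were selected on the study's own lists: a gene is included if its symbol is that of a calcium channel alpha-1 subunit (Cacna1) or a sodium channel alpha subunit (Scn) and it stands in the authors' list of down-regulated or up-regulated genes. Of the 19 symbols that this allows, 10 were named there, 8 for calcium and 2 for sodium channels, among 3716 genes with a symbol in those lists and 41096 genes in the expression table. All 10 stood in the down-regulated list, so that a lower value after treatment is how they were chosen and is given below as a description, with no test. The other 9 symbols, Cacna1f, Cacna1h and Scn1a among them, were not analysed here, and genes that just missed the lists carry no symbol.

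The samples were 6 cochleae of female C57BL/6 mice (spelled C56Bl/6 in the labels), 4 weeks old by the methods, each exposed to a 16 kHz sound for 4 h. The sound was narrow band noise by the paper's abstract and a pure tone by the methods. The sound trauma group (specimens 6, 8 and 10, n = 3) was labelled as noise only and, by the methods, received artificial perilymph. The MSC treated group (specimens 13, 18 and 20, n = 3) received 1 µl of mesenchymal stromal cells of human umbilical cord Wharton's jelly through the posterior semicircular canal, 48 h after the sound. The methods state more animals per condition than the 3 libraries per group used here, so the authors' mean FPKM may rest on other animals too. RNA was taken 2 days after treatment by the labels and 72 h after it by the methods. No cochlea without sound exposure is among the 6, the tissue was the whole cochlea, and nothing says that specimens of one group were pooled or came from 1 litter.

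Voltage-gated calcium and sodium channels open when the membrane depolarises. Each pore subunit is one long protein of homologous repeats in a row, and a ring of one residue from each repeat selects the ion. Cacna1s makes the pore of Cav1.1, the voltage sensor of skeletal muscle, which opens the ryanodine receptor Ryr1 by direct contact. Cacna1d makes Cav1.3, the calcium channel of the inner hair cell ribbon synapse, and Cacna1c makes Cav1.2 of cardiac and smooth muscle and of many neurons. Cacna1a, Cacna1b and Cacna1e make the P/Q-type, N-type and R-type channels that trigger transmitter release, and Cacna1g and Cacna1i make low-threshold T-type channels. Scn2a and Scn8a make Nav1.2 and Nav1.6, which carry the action potential at axon initial segments and, for Nav1.6, at mature nodes of Ranvier, those of the auditory nerve included.

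The sequences below show how alike the pore genes are at one homologous place, the selectivity ring residue of the first repeat. Its codon is in capitals, within 27 bases of the coding strand, written 5′ to 3′. The windows were found by the amino acid pattern around the ring in GENCODE M21 transcripts of mouse (GRCm38), so that the residue itself, glutamate in calcium pores and aspartate in sodium pores, was part of the search and is not a result. Sodium and calcium pores are known to differ mainly at the ring residues of later repeats, which are not shown. All 10 lie in coding exons. GRCm38 is not the genome to which the reads were aligned, and its positions serve only these sequences.
Cacna1s: tgcatctccatgGAGgggtggactgat
Cacna1c: tgtatcaccatgGAGggctggacagac
Cacna1d: tgcattaccatgGAGggctggacagat
Cacna1a: tgcatcaccatgGAAggctggactgat
Cacna1b: tgtatcaccatgGAGggctggactgac
Cacna1e: tgcatcactatgGAAgggtggaccact
Cacna1g: gtcatcacactgGAGggctgggtcgac
Cacna1i: gtgatcactctgGAAggctgggtggag
Scn2a: cttatgactcaaGACttctgggaaaac
Scn8a: ctcatgactcagGACtactgggagaac

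The codon was GAG in 5 genes, GAA in 3 genes and GAC in the 2 sodium pores. The windows of Cacna1b and Cacna1c matched at 26 of 27 bases, those of Scn2a and Scn8a at 23, those of the T-type pair Cacna1g and Cacna1i at 22, and those of Cacna1s and Scn2a at 9, the fewest of any pair. The muscle pore window lies at chr1:136073674-136073700 on the plus strand, in exon 6 of 44 of Cacna1s. Among the L-type pores, that of Cacna1c is at chr6:118751381-118751407 (minus strand, exon 7 of 48) and that of Cacna1d at chr14:30178557-30178583 (minus strand, exon 7 of 49). Exon 6 of 47 holds the window in each of the release-site pores, at chr8:84523171-84523197 on the plus strand for Cacna1a, and on the minus strand at chr2:24730683-24730709 for Cacna1b and at chr1:154633566-154633592 for Cacna1e. The T-type windows are at chr11:94461959-94461985 for Cacna1g (minus strand, exon 7 of 38) and chr15:80356129-80356155 for Cacna1i (plus strand, exon 8 of 37). Both sodium windows fall in exon 9 of 27 on the plus strand, at chr2:65688421-65688447 for Scn2a and chr15:100971623-100971649 for Scn8a.

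The libraries held 9170390 to 11030863 reads on genes, and values below are scaled counts, which are reads on a gene multiplied by 1 factor per library. Markers of tissue next to the cochlea differed between libraries far more than depth did. As with the pores, a marker or partner gene could be named only if it stood in the authors' lists, so its direction between the groups was largely fixed by that choice and supports nothing here. The muscle and neuron markers named were all in the down-regulated list, and the hair cell and supporting cell markers named were all in the up-regulated list. The scaled counts of 9 skeletal muscle fibre genes (of 10 on the list) summed to 689091, 23777 and 155044 after sound trauma alone and to 370132, 57933 and 63601 with MSC treatment, and all 9 were highest in specimen 6. Of 9 cerebellar neuron genes, 8 were named, all 8 were highest in specimen 8, and their sums were 4333, 25497 and 1714 in sound trauma against 1861, 2387 and 1663 in MSC treated cochleae. One of them, Gabra6, was at or under 3 reads in specimens 10 and 13. Forebrain and midbrain neuron genes, 5 named of 8, also had their 2 highest sums in specimens 6 and 8: the sums were 3794, 7410 and 1334 in sound trauma and 1883, 1719 and 1185 in MSC treated cochleae, and 4 of the 5 were highest in specimen 8. The other, Camk2a, was highest in specimen 6 (1983), followed by specimens 8 (1345) and 13 (1131). With Slc17a7 (1392), Camk2a made up most of the sum of specimen 6. Of 8 hair cell markers, Otof and Pou4f3 were named, and their sums of 263 and 257 in specimens 6 and 8 lay below those of the other 4 libraries, 456 to 654. The same held for 4 of 12 cochlear supporting cell, lateral wall and matrix genes (1676 and 1808 in specimens 6 and 8, 2880 to 4202 in the others). By these sums, specimens 6 and 8 both stood apart from specimen 10 of their own group. Specimen 6 was higher than specimen 10 in muscle and in both neuron sums, and specimen 8 was lower in muscle and higher in both neuron sums. In whole tissue, fewer cells of a type and less RNA per cell cannot be told apart.

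Comparison of the groups asks how cell delivery after sound trauma alters cochlear transcripts. All 10 pores were fitted lower with MSC treatment, with a median log2 fold change of -0.59, a direction set by the list that named them. Over all 15970 genes tested, which were not chosen in this way, the median was 0.001, and nothing is read from the difference. The limma fit called 0 of 15970 genes at an adjusted p under 0.05 (0%), with a smallest adjusted p of 0.954 and 376 genes at an unadjusted p under 0.05. In 1 of the 10 pores, Cacna1g, all MSC treated values lay below all sound trauma values, which was so for 2.92% of all tested genes, while 4.25% had all MSC treated values above. The choice of genes listed as lower favours such a separation, so it is given as a description. Specimen 8 held the highest value of 9 of the 10 pores and specimen 6 the second highest in 6. Since the pores were chosen for high sound trauma values, a sound trauma library at the top is part of that choice, and nothing is read from the 28.2% of all tested genes that were highest in specimen 8. The exception was the muscle pore, Cacna1s, which was lowest in specimen 8.

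**Figure D1:**
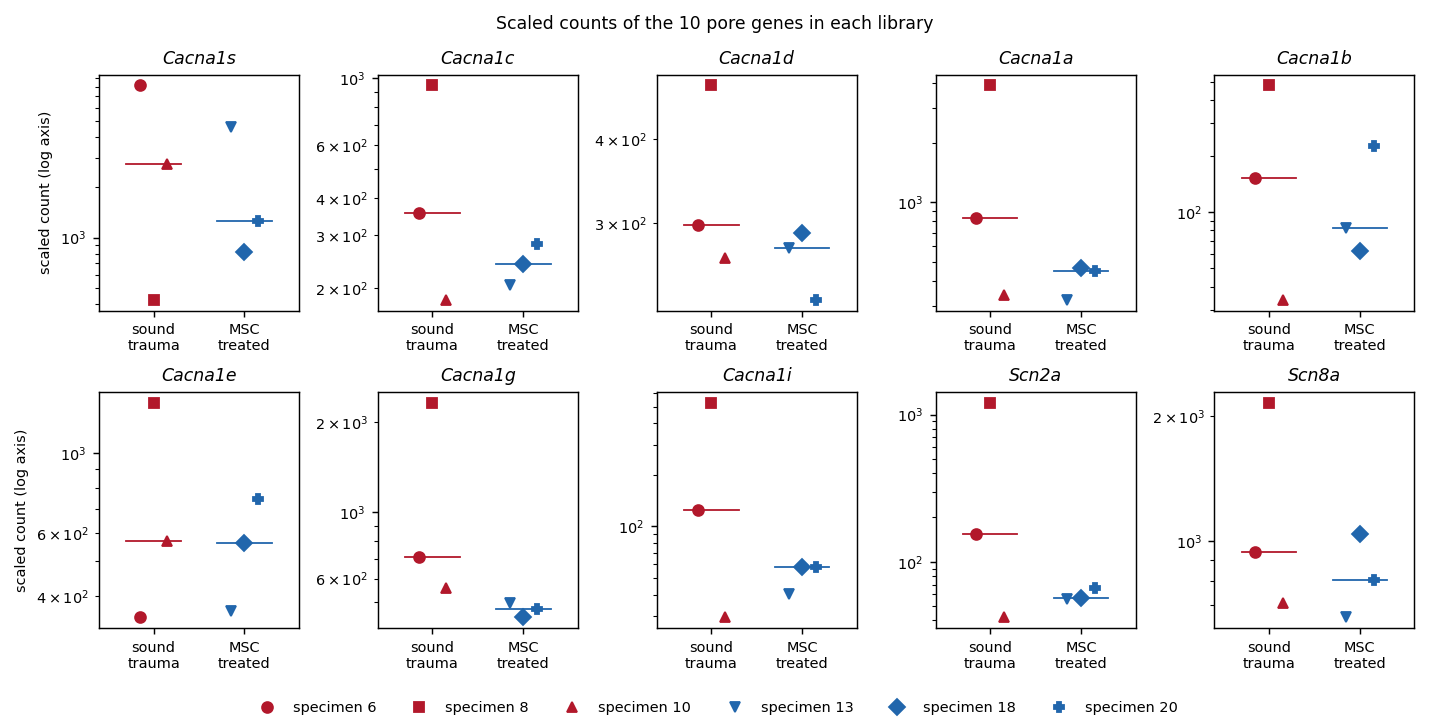
Scaled counts (log axis, its range set for each gene) of the 10 pore genes in 3 sound trauma and 3 MSC treated libraries, with 1 point per library and a line at the group median. Specimen 8 (square) is at the top of every panel but that of Cacna1s, where it is at the bottom, and the groups are separate in that of Cacna1g alone.

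Cacna1s (MGP_C57BL6NJ_G0016939), the skeletal muscle pore, had the highest level of the 10 per transcript length, the authors' mean FPKM being 53.2 for sound trauma and 33.7 with MSC treatment. Sound trauma specimens 6, 8 and 10 had 8153, 424 and 2748 scaled counts, and MSC treated specimens 13, 18 and 20 had 4574, 815 and 1253. The sound trauma group thus held both the highest and the lowest library, 19.2-fold apart, and the groups overlapped throughout. Means were 3775 ± 3965 (SD, n = 3) and 2214 ± 2056 (SD, n = 3), and the fitted log2 fold change, MSC treated minus sound trauma, was -0.34 with an SE of 1.15. Its sign turned with the library: it was 0.63 without specimen 6, -1.50 without specimen 8, -1.07 without specimen 13 and 0.18 without specimen 18. It was also nearer to 0 without specimen 10 (-0.15) and without specimen 20 (-0.13).

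The libraries ranked by Cacna1s as they did by the summed muscle fibre markers, with specimen 6 first, followed by 13, 10, 20, 18 and 8. Genes of the triad, the junction at which Cav1.1 meets the calcium store, moved with it. Of 9 triad and store genes, 8 were named, all 8 were highest in specimen 6, 7 were lowest in specimen 8, and their median log2 fold change was -0.32, with 7 lower and 1 higher, all 8 being of the down-regulated list. Ryr1, the calcium release channel that Cav1.1 opens, had 26800.1, 1832 and 9648 scaled counts in sound trauma and 19475, 2808 and 4075 in MSC treated cochleae. Set against Ryr1 in the same library, Cacna1s was nearly constant. For each 1000 scaled counts of Ryr1 there were 304, 232 and 285 of Cacna1s after sound trauma alone and 235, 290.3 and 308 with MSC treatment, a range of 1.33-fold. Against Atp2a1, the calcium pump of fast fibres, the range was 1.86-fold, against Acta1, skeletal muscle actin, 2.14-fold, and against the sum of the fibre markers 1.67-fold (11.8 to 19.7 for each 1000). Jph2, which tethers the store to the surface membrane, went from 5625 in specimen 6 to 206 in specimen 8. The part of muscle tissue in the Cacna1s values was not tested.

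**Figure D2:**
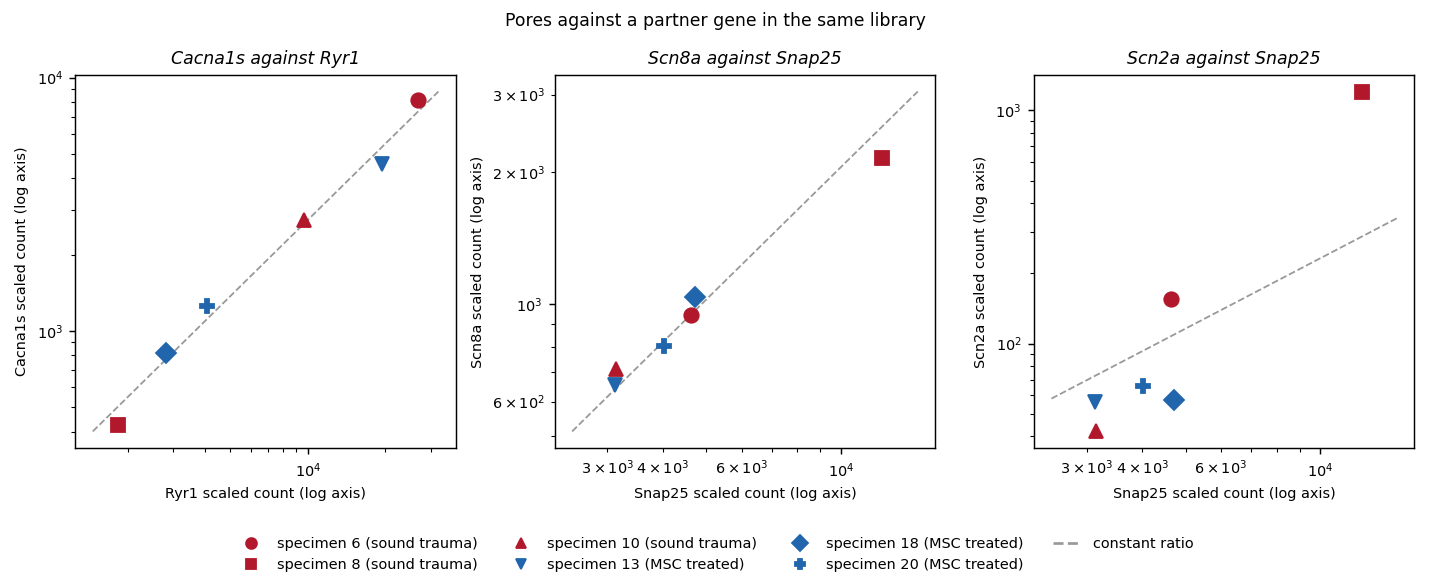
Scaled counts (log axes) of Cacna1s against Ryr1 and of Scn8a and Scn2a against Snap25, a presynaptic membrane fusion protein, with 1 point per library. The dashed line is the geometric mean ratio: Cacna1s and Scn8a keep within 1.33-fold and 1.30-fold of a constant ratio from highest to lowest, whereas Scn2a ranges over 8.02-fold.

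The other Cav1 pores, which serve several cell types, had lower mean FPKM by the authors than Cacna1s in both groups, although in specimen 8 Cacna1c took 51.1% and Cacna1d 26.0% of Cav1 reads against 22.9% for Cacna1s. Cacna1d (MGP_C57BL6NJ_G0021486) is the pore of the hair cell synapse, and its counts were 298, 482 and 265 in sound trauma and 275, 290.0 and 230.1 in MSC treated cochleae. It varied least of the 10, by 2.09-fold over the 6 libraries, and its fitted log2 fold change was -0.35 (SE 0.25). Leaving out specimen 8 brought this to -0.09, and leaving out specimen 10 to -0.52. Its library order was not that of the hair cell markers, which were lowest in specimens 6 and 8. Cacna1c (MGP_C57BL6NJ_G0031627) was at 357, 948 and 183 in sound trauma and at 206, 241 and 281 in MSC treated cochleae, so that the sound trauma group enclosed the treated one. Its fitted log2 fold change was -0.72 (SE 0.56), with -0.09 without specimen 8 and -1.27 without specimen 10. The authors' mean FPKM was 2.35 and 1.18 for Cacna1c, and 3.72 and 2.94 for Cacna1d, sound trauma first.

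The release-site pores of the Cav2 family differed from each other in how far specimen 8 stood out. Cacna1a (MGP_C57BL6NJ_G0034359), the P/Q-type pore which is abundant in Purkinje and granule cells of the cerebellum, had 836, 3899.8 and 339 scaled counts in sound trauma and 321, 467 and 447 in MSC treated cochleae. Specimen 8 was 9.48 times the MSC treated mean, whereas specimen 10 lay among the treated libraries. The fitted log2 fold change was -1.35 (SE 0.83), with -0.39 without specimen 8 and -2.15 without specimen 10. By the authors' mean FPKM, 15.1 and 3.76, it was the second of the 10 in sound trauma and the fourth after treatment.

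Cacna1b (MGP_C57BL6NJ_G0025828), the N-type pore, had 153, 479 and 33.9 in sound trauma and 82.1, 62.3 and 226 in MSC treated cochleae, with the lowest value of all 6 in specimen 10. Its fitted log2 fold change was -0.37 (SE 0.98), and it moved both ways, to 0.53 without specimen 8 and to -1.36 without specimen 10. Among treated libraries, it was -0.19 without specimen 13, 0.00 without specimen 18 and -0.92 without specimen 20. Cacna1e (MGP_C57BL6NJ_G0017011), the R-type pore, was the neural pore lowest in specimen 6, with 350.0, 1377 and 569 in sound trauma and 364, 562 and 744 in MSC treated cochleae. Medians of its groups were 569 and 562, and the fitted log2 fold change of -0.28 (SE 0.52) became 0.26 without specimen 8 and -0.73 without specimen 6. It was -0.01 without specimen 13 and -0.52 without specimen 20.

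The make-up of the Cav2 family was different in specimens 6 and 8. Cacna1a took 62.4% of the reads of the 3 genes in specimen 6 (95% Wilson interval 59.6 to 65.2) and 67.8% in specimen 8 (66.6 to 68.9). In specimen 10 it took 36.0% (33.1 to 38.9), and in MSC treated cochleae 41.9%, 42.8% and 31.5%. Cacna1e was the leading gene in those 4 libraries, with 47.4% to 60.4%, against 26.1% and 23.9% in specimens 6 and 8. Intervals here cover counting error only.

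The T-type pores were both highest in specimen 8. Cacna1g (MGP_C57BL6NJ_G0019349), the Cav3.1 pore of thalamic relay cells, cerebellar neurons and other rhythmic cells, had 710.4, 2328 and 557 scaled counts in sound trauma and 497, 445 and 475 in MSC treated cochleae. It was the pore whose groups did not overlap, although the gap between specimens 10 and 13 was small. Means were 1198 ± 981 (SD, n = 3) and 472 ± 25.7 (SD, n = 3), the fitted log2 fold change was -1.04 (SE 0.51), and it was -0.41 without specimen 8 and -1.45 without specimen 10. Cacna1i (MGP_C57BL6NJ_G0022509), the Cav3.3 pore, had 124, 528 and 29.5 in sound trauma and 40.5, 58.2 and 58.2 in MSC treated cochleae. Its 33 reads in specimen 10 were the fewest of any pore in any library. The fitted log2 fold change was -1.26 (SE 0.96), or -0.23 without specimen 8 and -2.29 without specimen 10. Cacna1i gave 14.9% and 18.5% of T-type reads in specimens 6 and 8 and 5.03% to 11.6% in the other 4.

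The sodium pores had the widest and the narrowest range over libraries of the 7 neural pores. Scn2a (spelled Scn2a1 in the files, MGP_C57BL6NJ_G0026198), the Nav1.2 pore of unmyelinated axons and immature initial segments, had 155, 1205 and 42 scaled counts in sound trauma and 56.1, 57.2 and 66.0 in MSC treated cochleae. Specimen 8 was 7.76 times the next library and 20.2 times the MSC treated mean, and specimen 10 was below all treated libraries, with 28.7-fold between them. The treated libraries were close to each other, at 59.8 ± 5.43 (SD, n = 3). The fitted log2 fold change of -1.73 (SE 1.11) was the most negative of the 10. With single libraries left out it ranged from -2.84 without specimen 10 to -0.44 without specimen 8, and on recovered reads edgeR gave -2.98 and DESeq2 -2.97. Its mean FPKM by the authors was 3.93 for sound trauma and 0.505 with MSC treatment.

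Scn8a (MGP_C57BL6NJ_G0022776), the Nav1.6 pore of mature nodes, had 943, 2156 and 710.3 in sound trauma and 656, 1041 and 805 in MSC treated cochleae. Specimen 18, a treated cochlea, was above specimens 6 and 10. The fitted log2 fold change was -0.46 (SE 0.42), which became 0.00 without specimen 8, -0.80 without specimen 10 and -0.30 without specimen 13. Set against Snap25 in the same library, Scn8a ranged from 174 to 226 for each 1000, and the lowest ratio was that of specimen 8. Scn2a had 33.6, 97.2 and 13.4 for each 1000 of Snap25 in sound trauma and 17.9, 12.1 and 16.4 in MSC treated cochleae. Its share of the reads on both sodium pores was 14.1% (12.1 to 16.5) in specimen 6, 35.8% (34.3 to 37.4) in specimen 8 and 5.58% (4.22 to 7.34) in specimen 10. In specimens 13, 18 and 20 it was 7.88%, 5.21% and 7.58%. Cacna1a, like Scn2a, was higher relative to Snap25 in specimens 6 and 8, with 181 and 315 for each 1000 against 98.9 to 111 in the other 4. The libraries with these higher ratios were those with the 2 highest sums of cerebellar and of forebrain and midbrain markers, and the part of brain tissue in them was not tested. Other ratios are given for description alone. Cacna1g had 154, 188 and 177 for each 1000 of Snap25 in sound trauma and 159, 94.3 and 118 in MSC treated cochleae, so that specimen 10 was above specimen 6. Against the cerebellar marker Cbln3, Cacna1a had 1358 and 689 for each 1000 in specimens 6 and 8 and 14714 to 42111 in the other 4. Cbln3 itself had 531 and 5920 reads in specimens 6 and 8. It had 9 to 29 reads in the others, so that their ratios rest on few reads.

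**Figure D3:**
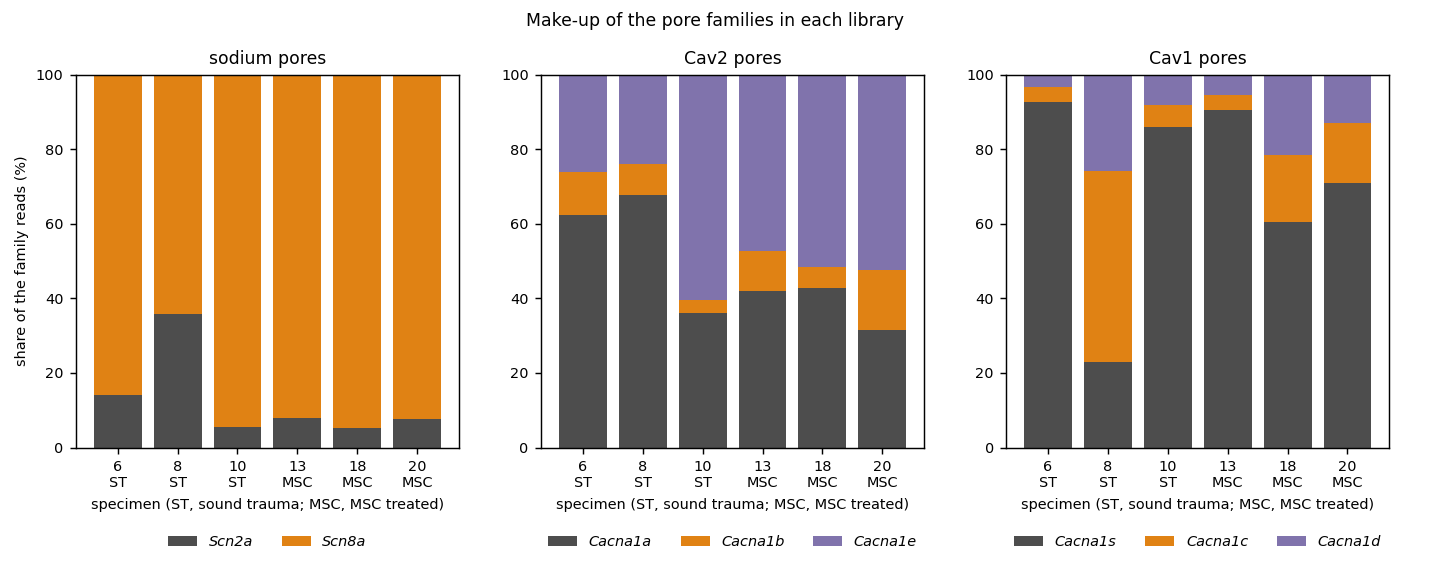
Share of the reads (%) that each gene took of the sodium, Cav2 and Cav1 pores named here, with 1 stacked bar per library. Scn2a and Cacna1a take larger shares in specimens 6 and 8 than in the other 4 libraries, and Cacna1s takes 22.9% of Cav1 reads in specimen 8 against 60.5% to 92.6% in the others.

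Auxiliary subunits bind the pores and set their gating and their number at the membrane. Of 19 such genes on the list, 13 were named, 12 in the down-regulated and 1 in the up-regulated list, and 12 passed the filter on low counts. Of those 12, the fit gave 11 a lower value and 1 a higher value in MSC treated cochleae, with a median log2 fold change of -0.84, a direction set by the lists that named them. Over all 15970 genes tested, 7946 were fitted lower. None passed an adjusted p of 0.05. Specimen 8 held the highest value of 10 of the 13, specimen 6 that of 2 and specimen 20 that of 1.

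A subunit of striated muscle followed the muscle pore, while Cacnb1, Cacna2d1 and Cacng1 were among the subunits not named. Cacng6, the gamma-6 subunit, which is expressed in striated muscle, had 753, 19.1 and 207 scaled counts in sound trauma and 346, 70.5 and 87.4 in MSC treated cochleae, the same library order as Cacna1s. Stac3, an adaptor without which Cav1.1 does not reach the triad, ranged from 138 to 284 for each 1000 of Cacna1s. Neighbouring genes did not share this pattern. Cacng7, Cacng8 and Cacng6 lie side by side on chromosome 7, yet Cacng7 (844, 1772 and 529 against 486, 600.5 and 472) and Cacng8 (41.7, 57.4 and 9.83 against 4.16, 21.4 and 5.82), of the family of AMPA receptor partners, were highest in specimen 8, where Cacng6 was lowest.

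Sodium channel beta subunits parted in the same way. Scn2b, the beta-2 subunit of central axons, had 375, 1568 and 66.1 in sound trauma and 119, 110.3 and 154 in MSC treated cochleae, which is 1302 to 2418 for each 1000 of Scn2a. Its neighbour on chromosome 9, Scn4b, had 3430.4, 955 and 1126 in sound trauma and 1869, 1391 and 998 in MSC treated cochleae and was lowest in specimen 8. Scn3b was the subunit of the up-regulated list, with 37.1, 102 and 23.2 in sound trauma and 58.2, 59.2 and 156 in MSC treated cochleae, where specimen 20 was the highest of all 6. Its groups overlapped, and its fitted log2 fold change was 0.85 (SE 0.64).

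The remaining calcium channel subunits were all highest in specimen 8. Cacnb4, a beta subunit of central neurons, had 174, 1046 and 143 in sound trauma and 108, 179.7 and 234 in MSC treated cochleae. Cacna2d2, an alpha-2-delta subunit of cerebellar Purkinje cells, had 280.5, 1033 and 188 against 159, 211 and 217. Cacng2, known as stargazin, had 207, 933 and 145 against 122, 193 and 123. Cacng3 was the gene that failed the filter, with 5.79, 78.4 and 0 in sound trauma and 12.5, 1.02 and 7.77 in MSC treated cochleae. Cacnb2, Cacng4 and Cacng5 were at 268, 404 and 289.7 in specimen 8 and between 26.0 and 153 in the other libraries.

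**Figure D4:**
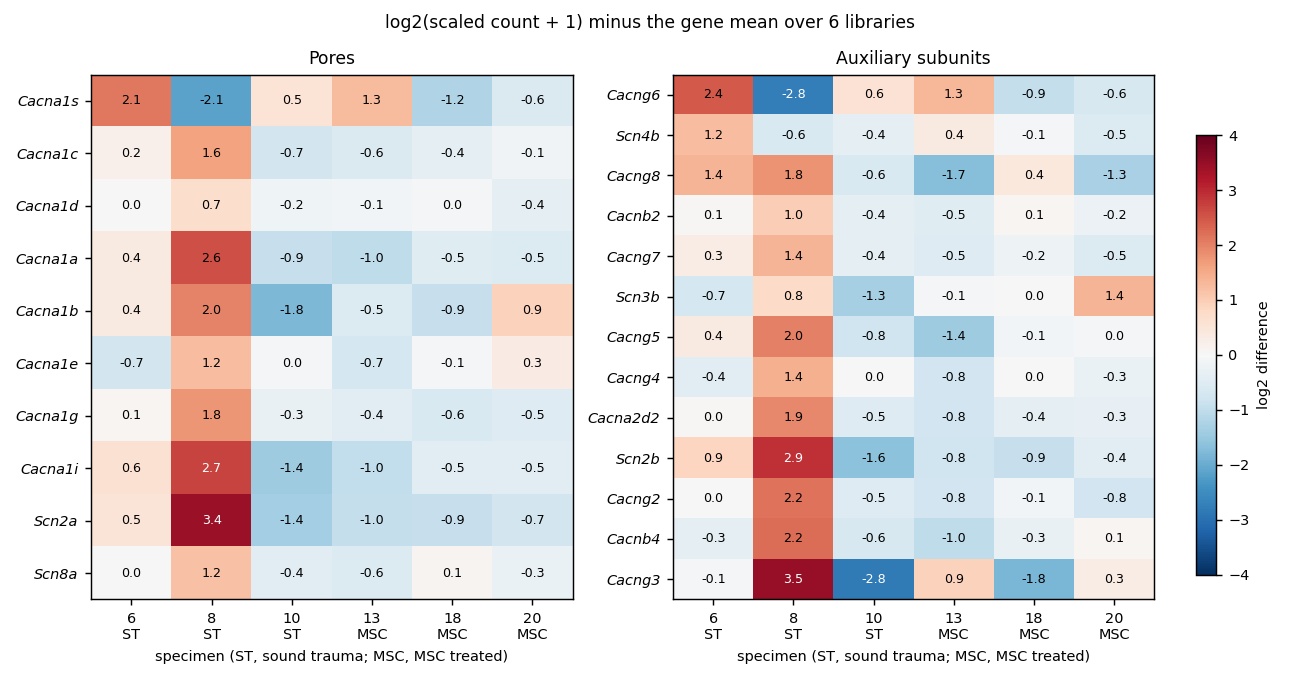
Log2(scaled count + 1) of each of the 10 pores and 13 auxiliary subunits in the 6 libraries, minus the mean of the gene over the 6, with red above and blue below that mean. Cacna1s and Cacng6 are red in specimen 6 and blue in specimen 8, while 9 pores and 10 subunits are reddest in specimen 8.

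Genes of the sites where the neural pores work showed the library pattern to different degrees. In the active zone, where Cav2 channels are held close to synaptic vesicles, 9 of 13 genes were named, the 9 were all of the down-regulated list, the fitted values were all lower (median -0.92), and 8 were highest in specimen 8. The highest mean scaled counts over the 6 libraries, uncorrected for length, were those of Snap25 (4628, 12397 and 3143 against 3130.3, 4721 and 4019), the fusion clamp Cplx1 (2818, 3638 and 2282 against 2142, 3281 and 2424) and its paralogue Cplx2 (950.3, 5706 and 393 against 309.6, 436 and 839). Cplx1 differed by 1.70-fold over the 6 libraries and Cplx2 by 18.4-fold. The place of Cplx2 rests on specimen 8: Syt2, a synaptic vesicle calcium sensor, was above it in the other 5 libraries (1466, 2266 and 925 against 978, 1682 and 1215) and differed by 2.45-fold.

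At nodes and initial segments, which hold Nav1.2 and Nav1.6, 7 of 13 genes were named, 6 listed by the authors as down-regulated and 1 as up-regulated, with fitted values in those directions and a median of -0.69. Cntnap1, the paranodal adhesion protein Caspr, had 882, 2482 and 447 in sound trauma and 474, 714 and 548 in MSC treated cochleae, and Cntn2, an adhesion protein of juxtaparanodes, had 673, 2549 and 269 against 326, 566 and 656. The higher one was Kcna1, a juxtaparanodal potassium channel of the up-regulated list, with 578, 879.6 and 753 in sound trauma and 590.1, 1058 and 1147 in MSC treated cochleae. The place of Cntn2 among the highest means rests on specimen 8. Cntn1, of the same list, was above it in specimens 6, 10, 13 and 18, at 854, 440, 449 and 720.

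Likeness between patterns was measured as the root mean square difference of centred log2 values over the 6 libraries, which share their depth and their tissue. Among the pores, Cacna1a and Cacna1i were nearest, at 0.23, and Cacna1c and Cacna1g followed at 0.28. Cacna1s was at least 1.65 from every other pore. Of 3518 named genes compared, the 5 nearest to Cacna1s were Neb, which encodes the thin filament protein nebulin, at 0.13, then Dusp13, Mypn, Hfe2 and Tmem182 at 0.14 to 0.15. Nearest to the mean of the 7 neural pores were Clip3 at 0.086, Mtcl1 at 0.11, Celf4, a neuronal RNA-binding protein, at 0.12, Ncan, the brain matrix proteoglycan neurocan, at 0.13, and Cadm3 at 0.14. Clip3 had 1937, 6505 and 936 scaled counts in sound trauma and 1039, 1283 and 1499 in MSC treated cochleae.

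The starts of Cacna1s and of a neural pore, Cacna1b, are shown from RefSeq (GRCm38.p6), from 250 bases before to 50 after the annotated start. These starts are examples of sequence, and nothing about differences between libraries is read from them. Of the 10 pores, 8 matched an entry by symbol, Cacna1a and Cacna1g being the others. E-boxes (CANNTG, read on both strands, a palindrome in form) are in capitals. CAGCTG, an E-box that muscle and neural basic helix-loop-helix factors can bind, is one of the CANNTG forms.
Cacna1s: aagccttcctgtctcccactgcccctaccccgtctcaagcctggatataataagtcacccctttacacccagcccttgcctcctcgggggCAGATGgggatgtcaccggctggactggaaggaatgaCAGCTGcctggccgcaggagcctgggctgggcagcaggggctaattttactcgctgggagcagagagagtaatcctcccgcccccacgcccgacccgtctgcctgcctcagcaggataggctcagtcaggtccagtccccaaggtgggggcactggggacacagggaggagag
Cacna1b: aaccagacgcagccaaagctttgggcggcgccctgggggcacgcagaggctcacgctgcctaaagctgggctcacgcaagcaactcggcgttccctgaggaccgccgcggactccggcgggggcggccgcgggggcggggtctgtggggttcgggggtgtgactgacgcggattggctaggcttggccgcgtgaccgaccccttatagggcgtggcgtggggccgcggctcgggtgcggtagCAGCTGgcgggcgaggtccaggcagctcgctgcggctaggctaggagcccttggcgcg

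The Cacna1s window is at chr1:136052561-136052860 on the plus strand and has 2 E-boxes, 1 of them CAGCTG, and a GC content of 63.0%. The Cacna1b window is at chr2:24763103-24763402 on the minus strand and has 1 E-box, also CAGCTG, and a GC content of 72.3%. Of 32851 promoter windows of the same length, 72.3% held CANNTG and 16.3% held CAGCTG, and the median GC content was 52.7%. Of the neural pores with an entry, Cacna1b had a CAGCTG match and the windows of Cacna1e, Cacna1i, Scn2a and Scn8a had 0. Cacna1c and Cacna1d, which have several windows each, had 1 match in 1 of them. A match is a description of letters, and no bound site is read from it.

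The fitted values of the pores depended on single sound trauma libraries, in both directions. Without specimen 10 all 10 were below 0 and the median of all pores was -1.31. Without specimen 8, 7 of the 10 fitted log2 fold changes were below 0 and 3 above, and the median of all pores came to -0.16. Over single libraries left out, 4 pores changed sign at least once: Cacna1s, Cacna1b, Cacna1e and Scn8a. Without both specimens 6 and 8, an alternative chosen after seeing the data that leaves 1 sound trauma library, 4 were below 0 and 6 above. The values were then -0.72 for Cacna1s, 0.39 for Cacna1c, -0.01 for Cacna1d, 0.26 for Cacna1a, 1.60 for Cacna1b, -0.09 for Cacna1e, -0.24 for Cacna1g, 0.79 for Cacna1i, 0.50 for Scn2a and 0.20 for Scn8a.

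**Figure D5:**
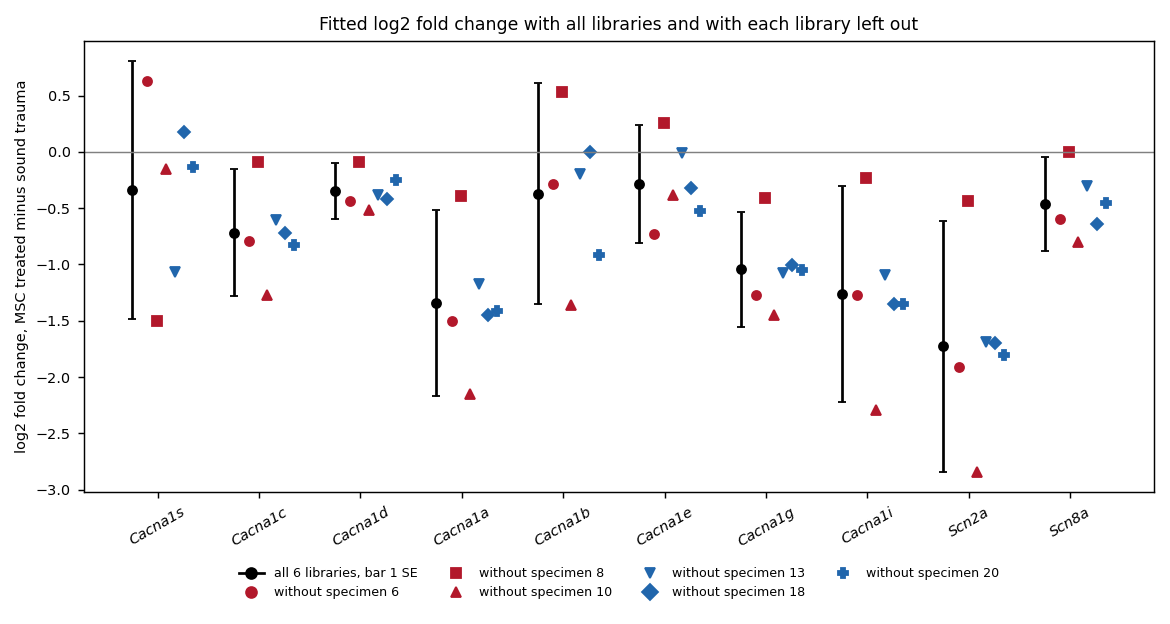
Fitted log2 fold change (MSC treated minus sound trauma) of each pore with all 6 libraries (black, bar 1 SE) and with each library left out (coloured by the group of that library). Without specimen 8 the values of the 9 pores other than Cacna1s lie between -0.44 and 0.53, nearer to 0 or above it, and that of Cacna1s is -1.50.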

How the data were processed

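Total RNA of 6 left cochleae was sequenced by the authors, who aligned reads with the AIR package to the C57BL/6NJ genome. The counting tool and its use of strand are not given in the sources used here. The deposited signal for 41096 genes is a scaled count: reads per gene times a factor set for each library. Every value (100%) was a whole multiple of its library's step within 0.0001 reads, which gave back the reads. The authors' lists also hold the mean FPKM of each group, used here only to compare levels between genes, and an FDR and fold change, which were not used.

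Genes kept by filterByExpr on recovered reads (15970 of 25369 with at least 1 read) were fitted with limma-trend on log2(scaled count + 1), with Benjamini-Hochberg adjustment over all of them. On this scale the change of low genes is understated. The unit was scaled rather than raw, so limma stood in for edgeR's quasi-likelihood test, which, with DESeq2 and limma-voom on recovered reads, was an alternative. The fit was also run on simulated data without differences in tissue between libraries, so that nothing about these libraries is read from that run. Fits ran in R 4.3.3 with DESeq2 1.42.0, edgeR 4.0.16 and limma 3.58.1. Descriptions were computed in Python 3.11.15 with scipy 1.17.1 and pandas 2.3.3.

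Depth was 9170390 to 11030863 reads on genes. Counting error alone enters the Wilson 95% intervals and the floor of 3 reads. The members and gene lists were chosen with earlier results of these data known. Some items are not reported here. The pores and auxiliary subunits are otherwise all named, with the 3 named genes of each partner list that had the highest mean scaled count, uncorrected for length, and the 5 nearest patterns. Syt2, Stac3, Acta1, Otof, Pou4f3, Gabra6, Cbln3, Camk2a, Slc17a7 and Cntn1 are named from the lists after their values were seen. Gene names come from the authors' lists. Pore codons come from GENCODE M21 transcripts and promoters from RefSeq.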

Additional observations from a re-analysis of the deposited data

How the results depend on the processing

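Under the 10 alternatives of scaling, filter, pseudocount and test, no pore changed sign, and 0 genes passed an adjusted p of 0.05 in limma-trend, limma-voom (350 at an unadjusted p under 0.05), edgeR (525) and DESeq2 (799). The median log2 fold change of the pores, -0.59, was -0.52 with scaling by total counts and -0.95 in both edgeR and DESeq2, and that of the neural pores, -1.04, was -1.35 in both. Of single pores, edgeR moved some by over 1.5 times, to -2.98 for Scn2a, -2.13 for Cacna1i, -2.05 for Cacna1a, -0.86 for Cacna1b, -0.78 for Cacna1s and -0.47 for Cacna1e, and DESeq2 moved the same pores, to between -2.97 and -0.47. With 1 library left out at a time, the median of all pores ranged from -1.31 to -0.16 and that of the neural pores from -1.45 to -0.23, in each case nearest to 0 without specimen 8 and farthest without specimen 10. The number of genes called ranged from 0 to 1, the 1 without specimen 10, where 2478 genes had an unadjusted p under 0.05. Without both specimens 6 and 8, chosen after seeing the data, the medians became 0.23 for all pores and 0.26 for the neural pores. That fit assumes that the lone sound trauma library varies as the treated ones do. No paired analysis was possible because the groups share no specimen numbers. Leaving out specimen 6, specimen 8 or both gave 0 genes called, with 277, 233 and 270 at an unadjusted p under 0.05. Among the pores, depth limits single values most for Cacna1i, with 33 reads in specimen 10. Values of some named subunits and markers rest on fewer reads.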
